A study of Homo sapiens with 9 samples.

Results

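The RNA exosome core is described here through its 10 subunit genes, EXOSC1 to EXOSC10, taken as the rows of the deposited gene count tables that carry these symbols. They are 10 of the 60664 genes listed, and all 10 were among the 18299 genes with enough counts to be tested. RNA was sequenced from 9 libraries of HEK293 Flp-In T-REx cells, a human embryonic kidney line built so that a transgene can be placed at one site and switched on with tetracycline. In 3 libraries the cells expressed a microRNA against CCDC97 from a tetracycline-inducible promoter, in 3 they expressed a microRNA against TTC33 from such a promoter, and 3 were control cells that expressed no microRNA. All 9 received tetracycline at 100 ng/ml for 3 days, so the drug was common to the groups, while the labels name no cells with a microRNA of another target. The question of the design was what depletion of TTC33 or of CCDC97 does to gene expression. The labels do not say whether replicates were separate cultures or whether a knock-down line was 1 clone, so the p-values cover the spread among these 9 libraries, and that spread may be technical alone.

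The exosome is a barrel-shaped complex that degrades or trims RNA from the 3' end, in the nucleus and in the cytoplasm. EXOSC4 to EXOSC9 form a ring that in human cells has lost its catalytic activity and serves as a channel. EXOSC1, EXOSC2 and EXOSC3 form a cap of RNA-binding proteins at its entrance, and the nucleases DIS3 or DIS3L below the ring and EXOSC10 above it cut the RNA. Ring subunits sit as pairs, EXOSC6 beside EXOSC7, EXOSC5 beside EXOSC8 and EXOSC4 beside EXOSC9. The complex matures ribosomal RNA, removes promoter upstream transcripts and other short-lived nuclear RNAs, and takes part in cytoplasmic mRNA decay.

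EXOSC7 and EXOSC6 had the smallest p-values of the subunits in the test over the groups, and the upstream sequence of each is shown because their mRNAs moved in opposite directions in the CCDC97 knock-down. Both are written 5' to 3' on the strand of the gene, from RefSeq promoters on GRCh38.p14, with matches to the motifs searched in capitals. The EXOSC7 stretch is the whole gap between the outermost exon of ZDHHC3, a palmitoyltransferase gene on the other strand, and the next EXOSC7 exon, though an annotated EXOSC7 transcript also starts farther upstream, within ZDHHC3. Its capitals mark a GC box (GGGCGG).
EXOSC7, chr3:44976186-44976229, plus strand: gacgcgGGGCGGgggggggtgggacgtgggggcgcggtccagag
EXOSC6, chr16:70251941-70252190, minus strand: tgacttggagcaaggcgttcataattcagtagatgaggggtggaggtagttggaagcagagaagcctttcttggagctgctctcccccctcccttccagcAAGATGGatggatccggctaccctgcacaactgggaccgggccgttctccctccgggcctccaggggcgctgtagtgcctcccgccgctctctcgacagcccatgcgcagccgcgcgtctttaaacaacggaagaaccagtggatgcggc
The capitals in the EXOSC6 sequence mark AAGATGG, the core of the YY1 motif. The 250 bases before the start of EXOSC7, which run into ZDHHC3, had 77.2% G and C and 36 CpG dinucleotides, and those of EXOSC6 had 60.8% and 15, against medians of 58.0% and 11 over 35116 RefSeq promoters.

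Upstream sequences of 8 of the 10 genes were compared, all but those of EXOSC1 and EXOSC4. Motifs were searched on both strands of the 250 bases, and the shares of all 35116 promoters that held them were 42.6% for the GC box GGGCGG, 32% for CCAAT, 10.7% for TATAAA, 8.52% for the ETS motif CCGGAAG, 3.7% for the YY1 core AAGATGG and 2.63% for the NRF1 motif GCATGCGC. The GC box was found 2 times before EXOSC2 and EXOSC7, 1 time before EXOSC3, EXOSC5, EXOSC8 and EXOSC10, and had no match before EXOSC6 and EXOSC9. CCAAT was found 3 times before EXOSC2 and 1 time before EXOSC5, EXOSC9 and EXOSC10. YY1 had its match before EXOSC6, NRF1 before EXOSC10 and TATAAA before EXOSC8. No motif of the 6 was common to these 8 genes. These are matches of letters and say nothing of binding.

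The 10 genes lie at separate places in the genome, given on GRCh38 as annotated in GENCODE release 29. EXOSC6 (ENSG00000223496) is a gene of 1 exon on the minus strand of chromosome 16, 70246778 to 70251930. EXOSC7 (ENSG00000075914) lies on the plus strand of chromosome 3, 44975241 to 45036066, with 8 exons in its longest coding transcript. EXOSC5 (ENSG00000077348; chromosome 19, 41386374 to 41397479, minus strand) has 6 exons, and EXOSC8 (ENSG00000120699; chromosome 13, 36998816 to 37009613, plus strand) has 11. EXOSC4 (ENSG00000178896) on chromosome 8 has 2 exons and EXOSC9 (ENSG00000123737; chromosome 4, 121801317 to 121817021, plus strand) has 11. The cap genes are EXOSC1 (ENSG00000171311; chromosome 10, 97436142 to 97446017, minus strand, 8 exons), EXOSC2 (ENSG00000130713; chromosome 9, 130693721 to 130704894, plus strand, 9 exons) and EXOSC3 (ENSG00000107371; chromosome 9, 37766978 to 37801437, minus strand, 4 exons). EXOSC10 (ENSG00000171824; chromosome 1, 11066618 to 11099881, minus strand) has 25 exons and the most merged exon bases, 6003.

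Some reads of these genes cannot be assigned with certainty, since the strand setting of the counting is not given in the sources used here. On the other strand, annotated transcripts share 36.6% of the exon bases of EXOSC10, 19.5% of EXOSC4, 8.32% of EXOSC8, 5.39% of EXOSC9, 3.18% of EXOSC3 and 1.34% of EXOSC5. The row of EXOSC10-AS1, an antisense transcript of EXOSC10, held 29 to 79 counts per library. EXOSC7 shares 604 exon bases, 13.6% of its total, with CLEC3B on the same strand, and CLEC3B held 1 to 8 counts per library. EXOSC3 shares 150 exon bases, 4.96%, with AL138752.2 on the same strand. The processed pseudogene EXOSC3P1 held 0 to 7 counts and EXOSC3P2 held 0.

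Counts assigned to genes ran from 21764203 to 36110891 per library, and the 10 genes held between 200 (EXOSC4 in CCDC97 knock-down replicate 3) and 5251 counts (EXOSC10 in control replicate 1). Each microRNA lowered its target: TTC33 mRNA was left at 19.7% and CCDC97 mRNA at 26.0% of control in the respective knock-down. CCDC97 mRNA was higher in the TTC33 knock-down than in controls (log2 fold change 0.43, edgeR adjusted p = 0.0371). It was at 65.1, 81.3 and 95.8 CPM in replicates 1, 2 and 3, against 59.5 to 60.6 CPM in controls. How this call depends on the processing or on single libraries is not given here. TTC33 mRNA in the CCDC97 knock-down was at 114% of control (edgeR adjusted p = 0.632). Of 7 genes listed as markers of HEK293 cells, VIM, KRT8, KRT18 and INA were at 616, 123, 78.0 and 57.0 CPM (counts per 1e+06 scaled library counts) in controls, and PAX2, NES and NEFM were at 5.71, 4.41 and 0.76 CPM. Of these, VIM (1.27-fold, edgeR adjusted p = 0.0140) and INA (1.70-fold, 4.863e-05) rose in the TTC33 knock-down, where 11.9% of all genes passed. None passed in the CCDC97 knock-down (4.56% of all genes), with 2 at an unadjusted p under 0.05 (20.6%). There DESeq2 called none, beside 9.74% of the genes to which it gave an adjusted p. A correction for G and C content and length gave 1 higher and 1 lower, beside 19.7% of the genes in that fit. In the direct contrast of the knock-downs 4 were higher, where 21.5% of all genes passed, 11.3% higher. The part of these markers in the results was not tested. In contrast, PTPRC, HBB, ALB, PECAM1 and MYH7, markers of other cell types, stayed at or below 0.21 CPM, HBB being at 0 in all libraries. The replicates numbered 1 of both knock-downs were unlike the others in how levels followed the G and C content of genes. For genes in the highest decile of G and C content, the median log2 difference from the control mean was 0.16, -0.27 and -0.28 in the CCDC97 knock-down and -0.09, 0.38 and 0.41 in the TTC33 knock-down, in the order of replicates 1, 2 and 3. In the lowest decile it was -0.14, 0.15 and 0.16, then 0.03, -0.41 and -0.46.

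Levels of different subunits were compared per kilobase of merged exons, as CPM per kb. In controls EXOSC6 had the highest value at 24.3 ± 0.94 CPM per kb (SD, n = 3), followed by EXOSC10 (23.9 ± 0.75), EXOSC5 (23.2 ± 1.52) and EXOSC2 (22.5 ± 0.85), and each of these overlapped its neighbour in the order over the libraries. EXOSC8 (14.7 ± 0.62) and EXOSC9 (12.1 ± 0.09) came next, each apart from its neighbours. EXOSC3 (9.09 ± 0.42), EXOSC1 (8.87 ± 0.34) and EXOSC4 (8.55 ± 0.29) overlapped in turn, and EXOSC7 was the lowest at 3.86 ± 0.10 CPM per kb. This order rests on the length used. Per kilobase of the longest coding transcript, which is 1055 bases for EXOSC7 against 4442 bases of merged exons, the order ran from EXOSC10 (51.1 CPM per kb), EXOSC2, EXOSC8, EXOSC9, EXOSC1 and EXOSC5 to EXOSC6 (24.3), EXOSC7 (16.2), EXOSC3 and EXOSC4 (11.3).

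By CPM per kb of merged exons, they stood between the 52.1 percentile (EXOSC7) and the 90.6 percentile (EXOSC6) of the genes tested. Their summed level was 149, 152 and 152 CPM per kb in control replicates 1, 2 and 3, 153, 162 and 157 in the CCDC97 knock-down, and 151, 165 and 160 in the TTC33 knock-down. EXOSC6 made up 16.1 ± 0.70% of this sum in controls and 12.4 ± 1.27% in the CCDC97 knock-down, EXOSC7 2.55 ± 0.04% and 3.73 ± 0.17%, while EXOSC5 went from 15.4 ± 0.93% in controls to 18.1 ± 1.16% in the TTC33 knock-down. These percentiles, sums and shares rest on the length used, as the order does. In controls EXOSC6 and EXOSC7 were at 24.3 and 3.86 CPM per kb of merged exons. Per kb of the longest coding transcript they were at 24.3 and 16.2. In bulk RNA, fewer cells with a transcript and less of it per cell cannot be told apart.

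**Figure D1:**
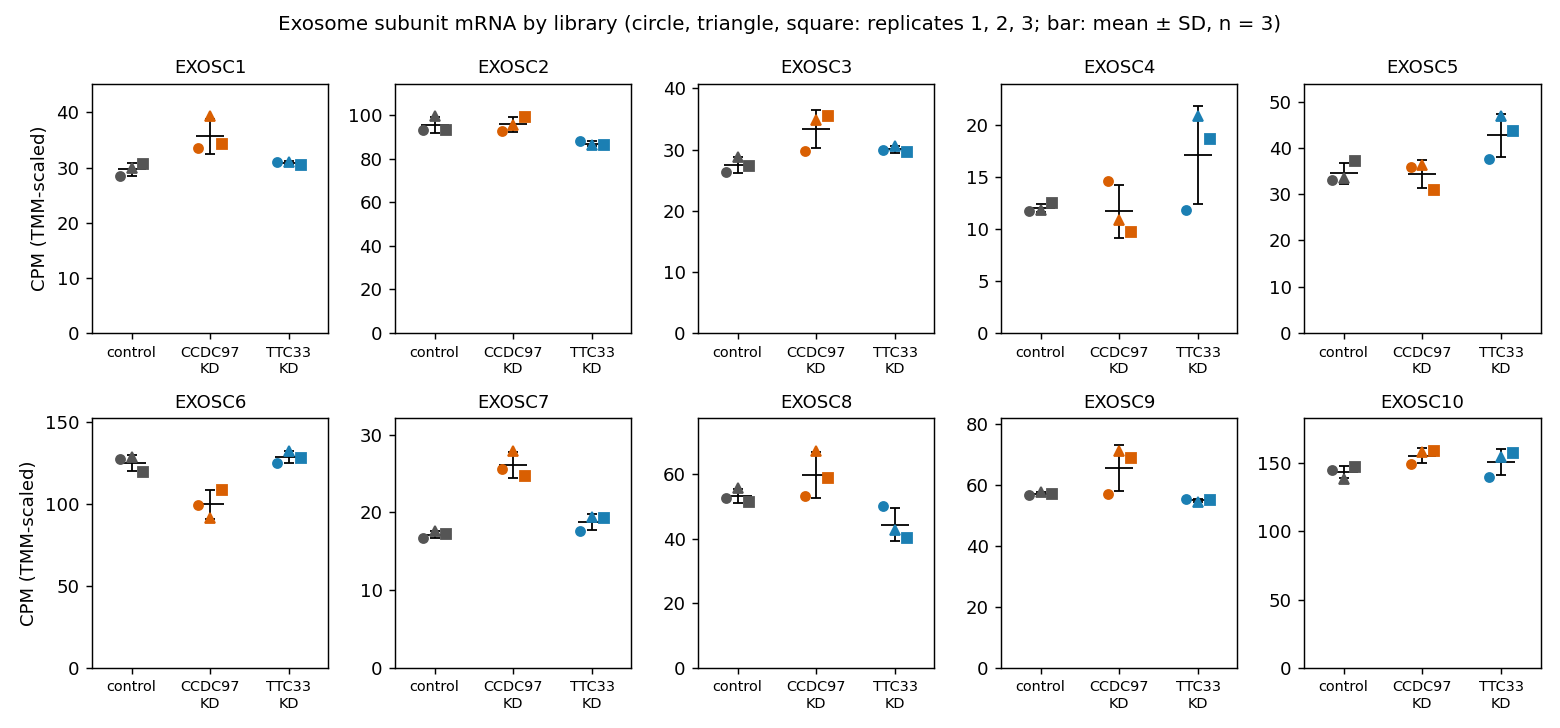
Level of each exosome core subunit in CPM (axis from 0, scaled per gene) in each of the 9 libraries, by group, with circle, triangle and square for replicates 1, 2 and 3 and bars for mean ± SD. EXOSC7 in the CCDC97 knock-down lies at 24.7 to 27.9 CPM, above its 16.6 to 17.6 CPM in controls, and EXOSC6 in that knock-down lies at 91.5 to 109 CPM, below its 120 to 129 CPM in controls.

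In the CCDC97 knock-down EXOSC7 mRNA rose and EXOSC6 mRNA fell, while the other 8 subunits did not pass the test. The count was 1 higher and 1 lower of 10, where 4.56% of all genes tested passed in this comparison, 2.07% higher and 2.49% lower. The median log2 fold change of the 10 was 0.14, against 0.0008 over all genes tested, and the median absolute value was 0.18 against 0.16. The DESeq2 Wald test called 3 higher and 1 lower, as did edgeR with a correction for G and C content and length, beside 9.74% and 19.7% of all genes. All CCDC97 knock-down libraries lay on one side of all controls for 5 of the 10 subunits, which held for 29.9% of all genes tested.

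EXOSC7, a ring subunit of the RNase PH fold, had 16.6, 17.6 and 17.2 CPM in control replicates 1, 2 and 3, and 25.5, 27.9 and 24.7 CPM in those of the CCDC97 knock-down. The lowest knock-down library was well above the highest control, with no overlap. The means were 17.1 ± 0.46 and 26.0 ± 1.68 CPM (SD, n = 3), a 1.52-fold rise with a log2 fold change of 0.61 ± 0.08 (SE; 95% interval 0.42 to 0.79; edgeR adjusted p = 0.00327). By p it ranked 94 of 18299 genes. Leaving out any 1 of the 9 libraries kept this call, with log2 fold changes of 0.54 to 0.64 and adjusted p of 0.000517 to 0.0318. Genes of like G and C content had median log2 differences of 0.02, -0.01 and 0.01 from control in the 3 knock-down libraries, where EXOSC7 had 0.57, 0.70 and 0.52.

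EXOSC6, the ring subunit that pairs with EXOSC7, had 128, 129 and 120 CPM in controls and 99.2, 91.5 and 109 CPM in the CCDC97 knock-down. The groups did not overlap, and the knock-down libraries differed among themselves by more than the controls did. It fell by 0.33 on the log2 scale (SE 0.08; 95% interval -0.49 to -0.16; edgeR adjusted p = 0.0352), to 79.7% of the control mean. Genes of like G and C content had median log2 differences of -0.02, 0.07 and 0.08, where EXOSC6 had -0.34, -0.45 and -0.20. The call rested on single libraries: adjusted p was 0.162, 0.165 and 0.0914 without control replicate 1, 2 or 3, 0.1255 without CCDC97 knock-down replicate 2, and 0.0567 without TTC33 knock-down replicate 2, which enters through the common spread. The log2 fold change stayed between -0.40 and -0.28 whichever library was left out.

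Of the cap subunits in the CCDC97 knock-down, EXOSC1 and EXOSC3 were near the threshold. EXOSC1, the cap protein also called CSL4, had 28.4, 29.9 and 30.7 CPM in controls and 33.5, 39.3 and 34.3 CPM in the knock-down, without overlap (log2 fold change 0.27 ± 0.08, SE; edgeR adjusted p = 0.0941). EXOSC3, the cap protein also called RRP40, had 26.3, 28.8 and 27.3 CPM and 29.8, 34.9 and 35.5 CPM, also without overlap (0.28 ± 0.09; edgeR adjusted p = 0.0919). Both passed without CCDC97 knock-down replicate 1, with log2 fold changes of 0.31 and 0.36 and adjusted p of 0.0457 and 0.0209. They also passed with the DESeq2 Wald test (0.0354 and 0.0341) and without TTC33 knock-down replicate 1 (adjusted p = 0.0477 and 0.0473). That last fit called more genes in this comparison than any other fit without 1 library. EXOSC2, the cap protein also called RRP4, had 93.2, 99.5 and 93.2 CPM in controls and 92.5, 95.4 and 99.2 CPM in the knock-down, and these ranges overlapped.

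The other ring subunits overlapped controls in the CCDC97 knock-down. EXOSC9 had 56.7, 57.6 and 57.1 CPM in controls and 57.0, 71.1 and 68.7 CPM in the knock-down, with replicate 1 at the control level (log2 fold change 0.20 ± 0.09, SE; edgeR adjusted p = 0.216). Without that library it passed, at 0.29 with an adjusted p of 0.0243. EXOSC8 had 53.1, 67.1 and 58.8 CPM against 52.6, 55.7 and 51.3 CPM in controls (0.17 ± 0.11; adjusted p = 0.413). EXOSC4 (11.8, 11.9 and 12.5 CPM in controls, 14.6, 10.9 and 9.68 CPM in the knock-down) and EXOSC5 (33.1, 33.4 and 37.1 CPM, then 35.8, 36.2 and 30.9 CPM) had adjusted p of 0.951 and 0.982. EXOSC10, the nuclease enriched in the nucleolus, had 145, 139 and 147 CPM in controls and 149, 158 and 159 CPM in the knock-down, without overlap but with a log2 fold change of only 0.11 ± 0.07 (adjusted p = 0.384).

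**Figure D2:**
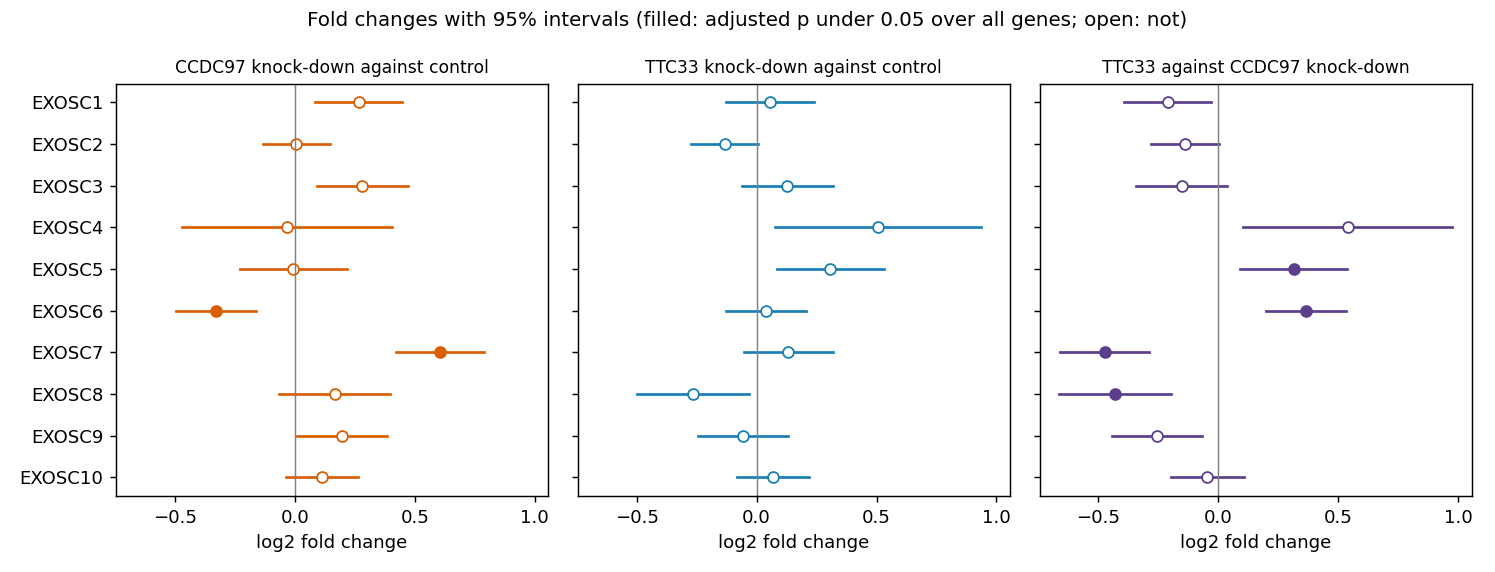
Log2 fold change of each subunit in the 3 comparisons, with points for the edgeR estimate, bars for its 95% interval and filled points for an adjusted p under 0.05. In the CCDC97 knock-down against control EXOSC7 lies at 0.61 and EXOSC6 at -0.33, and in the TTC33 knock-down against control no subunit is filled.

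In the TTC33 knock-down no subunit passed the edgeR test adjusted over all genes. Here 11.9% of all genes tested passed, 6.5% higher and 5.44% lower, and the count of subunits was 0 of 10. At an unadjusted p under 0.05 there were 3 of the 10, EXOSC4, EXOSC5 and EXOSC8, against 31.2% of all genes tested, so the share was near the background. The DESeq2 Wald test called 1, EXOSC5 (16.5% of all genes). With the correction for G and C content and length, 2 were higher and 1 lower of the 10, beside 27.9% of all genes. All TTC33 knock-down libraries lay on one side of controls for 6 of the 10, against 36.8% of all genes tested. The median log2 fold change of the 10 was 0.06 (all genes tested, 0.0045), and the median absolute value was 0.13 (all genes tested, 0.21).

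EXOSC5, the ring subunit also called RRP46, had 37.7, 46.8 and 43.7 CPM in the TTC33 knock-down against 33.1, 33.4 and 37.1 CPM in controls, and the lowest knock-down library was just above the highest control. Its log2 fold change was 0.31 ± 0.10 (SE; 95% interval 0.09 to 0.53; edgeR adjusted p = 0.0694). EXOSC8, its partner in the ring, lay on the other side, at 50.1, 42.7 and 40.1 CPM against 52.6, 55.7 and 51.3 CPM in controls (-0.26 ± 0.11; adjusted p = 0.118). EXOSC4, also called RRP41, had 11.8, 20.8 and 18.7 CPM against 11.8, 11.9 and 12.5 CPM in controls. Replicate 1 was at the control level and the other two were above it, so the groups overlapped (0.51 ± 0.20; adjusted p = 0.108).

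These 3 genes lie towards the ends of the range of G and C content, along which replicate 1 of this knock-down differed from the others; its part in the results was not tested beyond the values given here. Exons of EXOSC4 and EXOSC5 have 61.9% and 60.5% G and C, in deciles 10 and 9 of the genes tested, and those of EXOSC8 have 42.0%, in decile 3. EXOSC4 had log2 differences from the control mean of -0.02, 0.79 and 0.63 in the 3 TTC33 knock-down libraries, where the medians of its decile were -0.09, 0.38 and 0.41. For EXOSC5 these medians were -0.04, 0.25 and 0.29 beside 0.13, 0.44 and 0.34, and for EXOSC8 0.03, -0.16 and -0.18 beside -0.09, -0.32 and -0.41. EXOSC9, in decile 2, had -0.05, -0.07 and -0.06, where the medians of its decile were 0.04, -0.22 and -0.26. With a correction for G and C content and length, the log2 fold changes were 0.29 for EXOSC4 (adjusted p = 0.0264), 0.12 for EXOSC5 (0.251) and -0.14 for EXOSC8 (0.0755). Without TTC33 knock-down replicate 1 all 3 passed, at 0.72, 0.39 and -0.36 with adjusted p of 0.00167, 0.0051 and 0.0109. That fit called more genes in this comparison than any other fit without 1 library. It kept the libraries whose decile medians above lay farthest from the control mean.

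**Figure D3:**
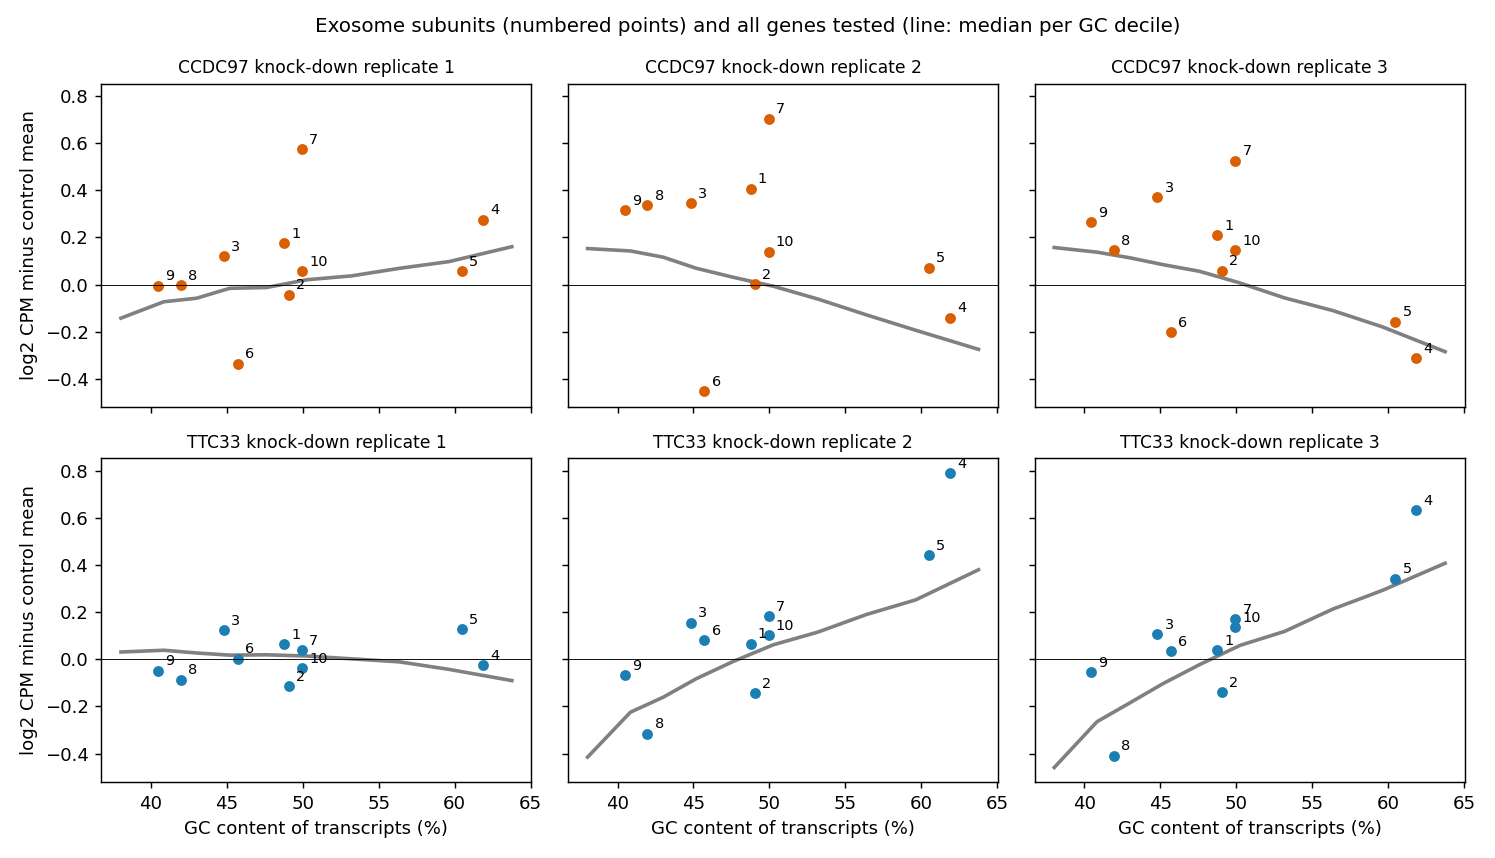
Log2 CPM minus the control mean (vertical axis) against G and C content of transcripts in percent (horizontal axis) in each knock-down library, with points numbered by subunit (7 for EXOSC7) and a line for the median of all genes tested by decile. EXOSC7 in the CCDC97 knock-down lies 0.52 to 0.71 above the median of its decile, while EXOSC5 in the TTC33 knock-down lies 0.05 to 0.19 above it.

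The remaining subunits differed little from control in the TTC33 knock-down. EXOSC7 had 17.6, 19.5 and 19.3 CPM against 16.6, 17.6 and 17.2 CPM in controls, with all knock-down libraries just above the controls (log2 fold change 0.13 ± 0.08, SE; 95% interval -0.05 to 0.32; edgeR adjusted p = 0.308). EXOSC6 had 125, 133 and 128 CPM against 128, 129 and 120 CPM in controls, with a 95% interval of the log2 fold change of -0.13 to 0.21. EXOSC2 had 88.0, 86.2 and 86.5 CPM, below all controls (-0.13 ± 0.06; adjusted p = 0.179), and EXOSC3 had 29.9, 30.6 and 29.6 CPM, above all controls (0.13 ± 0.09; adjusted p = 0.331). After the correction for G and C content and length, with which 27.9% of all genes passed, these 2 cap genes passed as well. They were at -0.15 and 0.20 with adjusted p of 0.0298 and 0.0308. EXOSC1 (31.0, 31.0 and 30.5 CPM), EXOSC9 (55.3, 54.5 and 55.0 CPM) and EXOSC10 (140, 154 and 158 CPM) had adjusted p of 0.681, 0.681 and 0.524.

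The 2 knock-downs share their controls, so the difference between them was tested in a direct contrast of the TTC33 against the CCDC97 knock-down. EXOSC6 and EXOSC5 were higher in the TTC33 knock-down, and EXOSC7 and EXOSC8 were lower. This is 2 higher and 2 lower of 10, where 21.5% of all genes tested passed, 11.3% higher and 10.2% lower. The DESeq2 Wald test called 3 higher and 3 lower (28.2% of all genes), and the correction for G and C content and length gave 1 higher and 4 lower (28.7%). At an unadjusted p under 0.05 there were 7 of the 10, against 38.2% of all genes tested, and the libraries did not overlap for 7 of the 10, against 30.4% of all genes tested. The median log2 difference of the 10 was -0.15 (all genes tested, 0.005), and the median absolute value was 0.29 against 0.25.

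EXOSC7 was lower with TTC33 depleted than with CCDC97 depleted, at 17.6 to 19.5 against 24.7 to 27.9 CPM, a log2 difference of -0.47 ± 0.08 (SE; edgeR adjusted p = 0.00405). EXOSC6 was higher there, at 125 to 133 against 91.5 to 109 CPM (0.37 ± 0.08; adjusted p = 0.00832). Both calls held whichever of the 9 libraries was left out, the adjusted p being at most 0.0209 and 0.0396. The ring pair of EXOSC6 and EXOSC7 thus differed between the knock-downs in opposite directions.

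The pair of EXOSC5 and EXOSC8, in deciles 9 and 3 of G and C content, also differed in opposite directions. Whether ring partners differ in opposite directions as a rule was not tested. EXOSC8 was at 40.1 to 50.1 CPM in the TTC33 knock-down and at 53.1 to 67.1 CPM in the CCDC97 knock-down (log2 difference -0.43 ± 0.11, SE; edgeR adjusted p = 0.0176). This fell to -0.24 (adjusted p = 0.00457) after the correction for G and C content and length, and the call was lost without CCDC97 knock-down replicate 2 or 3 (adjusted p = 0.0806 and 0.0511) and without TTC33 knock-down replicate 2 or 3 (0.0729 and 0.0738). EXOSC5 was at 37.7 to 46.8 against 30.9 to 36.2 CPM (0.31 ± 0.10; adjusted p = 0.0484). With the correction its difference was 0.03 (adjusted p = 0.80), and leaving out 1 library ended the call in 7 of 9 cases, the adjusted p being 0.0767, 0.0786 and 0.0691 without control replicate 1, 2 or 3, 0.0934 and 0.176 without CCDC97 knock-down replicate 2 or 3, and 0.187 and 0.145 without TTC33 knock-down replicate 2 or 3.

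The other 6 subunits did not pass in the direct contrast. EXOSC4 and EXOSC9, the third ring pair, had log2 differences of 0.54 ± 0.20 and -0.26 ± 0.09 (SE; edgeR adjusted p = 0.0726 and 0.0539), and EXOSC9 was lower in all TTC33 knock-down libraries. Without TTC33 knock-down replicate 1 both passed (adjusted p = 0.00113 and 0.0342), as they did without CCDC97 knock-down replicate 1 (0.0225 and 0.00465). The fit without TTC33 knock-down replicate 1 called more genes in this contrast than any other fit without 1 library. EXOSC9 lies in decile 2 of G and C content, whose genes had median log2 differences from control of -0.07, 0.14 and 0.14 in the CCDC97 knock-down and 0.04, -0.22 and -0.26 in the TTC33 knock-down. After the correction for G and C content and length its difference was -0.02. The cap genes EXOSC1, EXOSC2 and EXOSC3 had log2 differences of -0.21, -0.14 and -0.15, with adjusted p of 0.0876, 0.135 and 0.217. EXOSC1 and EXOSC3 passed without CCDC97 knock-down replicate 1 (adjusted p = 0.0416 and 0.0443).

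**Figure D4:**
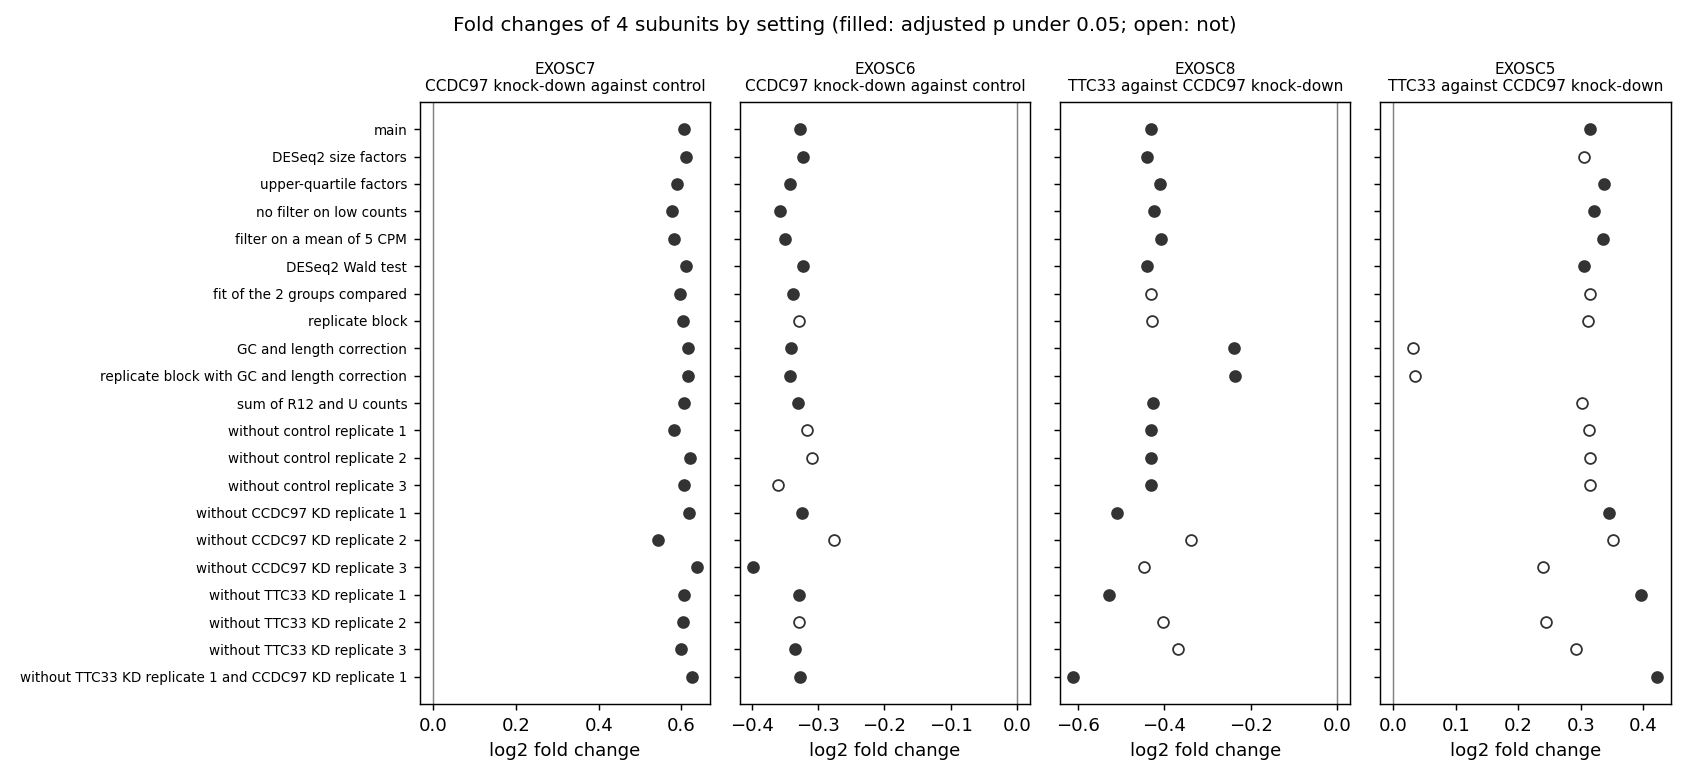
Log2 fold change (horizontal axis) of EXOSC7 and EXOSC6 in the CCDC97 knock-down against control and of EXOSC8 and EXOSC5 in the direct contrast under each way of processing (rows; KD stands for knock-down), with filled points for an adjusted p under 0.05. EXOSC7 in the CCDC97 knock-down stays between 0.54 and 0.64 and filled throughout, while EXOSC5 in the direct contrast drops to 0.03 with the correction for G and C content and length.

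Across the 3 groups in 1 test, EXOSC7 (edgeR adjusted p = 0.00178), EXOSC6 (0.0130) and EXOSC8 (0.0362) differed, and the other 7 had adjusted p of 0.0572 (EXOSC5) to 0.400 (EXOSC10). The profile of EXOSC7 over the 9 libraries was set beside those of 11514 genes averaging 5 CPM or more, by Pearson's r on log2 CPM. The genes most like it were HMOX1, which encodes heme oxygenase 1 (r = 0.991), DBI, an acyl-CoA-binding protein (0.981), the non-coding RNA HOXB-AS3 (0.981), IFT57, a protein of transport in cilia (0.980), and RPSA, a protein of the small ribosomal subunit (0.979). Libraries of a group share their treatment, so this describes a common pattern over 3 groups. They were chosen for following EXOSC7 over these libraries, so their log2 fold changes in the CCDC97 knock-down, from 0.29 (IFT57) to 0.72 (HOXB-AS3), describe that choice and are given without a test. RPSA is uncertain because reads may fall on its processed pseudogenes. Among the other subunits EXOSC1 was most like EXOSC7 (r = 0.920, rank 85), followed by EXOSC3 (0.821, rank 453), while EXOSC6 had r = -0.899 and rank 11370. Spearman's correlation, on the ranks of the libraries, was 0.9, 0.833 and -0.533 for EXOSC1, EXOSC3 and EXOSC6.

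ZDHHC3, whose outermost exon lies 44 bases from an EXOSC7 exon on the other strand, was looked at after these values were known. It had 57.9, 59.7 and 58.4 CPM in controls, 71.7, 73.2 and 72.0 CPM in the CCDC97 knock-down and 71.2, 62.9 and 69.5 CPM in the TTC33 knock-down. All libraries of both knock-downs were above the controls. The log2 fold change was 0.30 ± 0.07 in the CCDC97 knock-down (SE; edgeR adjusted p = 0.0349) and 0.21 ± 0.07 in the TTC33 knock-down (adjusted p = 0.0697). The first was at an adjusted p of 0.0546 to 0.172 without any control replicate, CCDC97 knock-down replicate 2 or 3 or TTC33 knock-down replicate 3. The direct contrast gave -0.09 for ZDHHC3 (adjusted p = 0.360), where EXOSC7 had -0.47.

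Of the nucleases and cofactors bound to the core, none of 4 passed the edgeR test in any comparison. DIS3, the main catalytic subunit, had 154 ± 4.65 CPM in controls, 157 ± 18.6 CPM with CCDC97 depleted and 158 ± 14.7 CPM with TTC33 depleted (SD, n = 3), and the libraries overlapped. DIS3L, its cytoplasmic counterpart, had 54.8 ± 1.22, 49.1 ± 3.52 and 49.2 ± 1.62 CPM in the same order, with both knock-downs below all controls (log2 fold change -0.16 in each; adjusted p = 0.261 and 0.178). C1D and MPHOSPH6, small proteins that help the nuclear exosome, were at 19.1 ± 0.76 and 36.7 ± 0.51 CPM in controls. Of 5 partners in ribosomal RNA maturation, none passed either. The unadjusted p was under 0.05 for 0, 0 and 1 of the 4 and for 1, 1 and 1 of the 5, in the TTC33 knock-down, the CCDC97 knock-down and the direct contrast. The background at that p was 31.2%, 20.6% and 38.2% of all genes. The DESeq2 Wald test called 0, 0 and 1 of the 4 and none of the 5, beside 16.5%, 9.74% and 28.2% of all genes. With the correction for G and C content and length, 1, 1 and 1 of the 4 and 0, 1 and 1 of the 5 passed, beside 27.9%, 19.7% and 28.7% of all genes.

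Adaptors carry RNA to the exosome, and some of their genes differed. Of 14 nuclear adaptors, 1 fell in the CCDC97 knock-down (4.56% of all genes passed) and 2 were higher and 2 lower in the direct contrast (21.5%). None passed in the TTC33 knock-down (11.9%), with 2 at an unadjusted p under 0.05 (31.2%) and 1 called by DESeq2 (16.5%). With the correction for G and C content and length the calls were 2 higher and 1 lower with TTC33 depleted, 1 higher and 2 lower with CCDC97 depleted, and 3 higher and 2 lower in the direct contrast. The shares of all genes called with it were 27.9%, 19.7% and 28.7% in this order. ZC3H18, which links the cap-binding complex to the exosome, had 116, 115 and 118 CPM in controls, 92.9, 72.4 and 82.2 CPM in the CCDC97 knock-down and 125, 153 and 169 CPM in the TTC33 knock-down. It lay below all controls in the first and above all controls in the second. Its log2 fold changes were -0.50 ± 0.11 (SE; edgeR adjusted p = 0.0349) and 0.36 ± 0.11 (adjusted p = 0.0616), and the direct contrast gave 0.85 ± 0.11 (adjusted p = 0.000911). NCBP3, a cap-binding protein, was higher in the direct contrast by 0.24 ± 0.06, and ZCCHC7, the RNA-binding subunit of the TRAMP complex, was lower, at -0.38 ± 0.11 (adjusted p = 0.0231 and 0.0291). The fourth gene was the helicase gene MTREX, named after its value was seen (-0.25 ± 0.08; adjusted p = 0.0489), and it was at -0.03 after the correction for G and C content and length, while ZCCHC7 was at -0.19. ZC3H18 was at -0.40 in the CCDC97 knock-down after that correction (edgeR adjusted p = 0.000124). Over all alternatives its difference in the direct contrast ran from 0.58 to 1.06. The direct contrast of ZC3H18 held whichever library was left out (adjusted p up to 0.00714). Its fall in the CCDC97 knock-down had an adjusted p of 0.0567 to 0.143 without any control replicate, CCDC97 knock-down replicate 2 or 3, or TTC33 knock-down replicate 2, and NCBP3 lost its call without control replicate 2, CCDC97 knock-down replicate 2 or TTC33 knock-down replicate 2 or 3 (up to 0.0859). Of the 9 fits without 1 library, ZCCHC7 and MTREX held only in those without replicate 1 of either knock-down (otherwise up to 0.121 and 0.171).

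The 4 cytoplasmic adaptor genes, 3 of the SKI complex and HBS1L, did not pass the edgeR test against control. In the TTC33 and the CCDC97 knock-down, 0 and 2 of 4 were at an unadjusted p under 0.05 (31.2% and 20.6% of all genes). DESeq2 called 0 and 1 of them there (16.5% and 9.74% of all genes). In the direct contrast edgeR called 1 higher and 3 lower, where 21.5% of all genes passed. The correction for G and C content and length gave 0 and 2 higher against control and 2 lower in the direct contrast, beside 27.9%, 19.7% and 28.7% of all genes. HBS1L, whose short form bridges the SKI complex and the exosome, had 128, 157 and 147 CPM in the CCDC97 knock-down and 117, 102 and 98.2 CPM in the TTC33 knock-down, without overlap (log2 difference -0.44 ± 0.09, SE; edgeR adjusted p = 0.00792). TTC37, the scaffold of the SKI complex, was lower as well (-0.41 ± 0.11; adjusted p = 0.0287), with 281 CPM in CCDC97 knock-down replicate 1 below the 292 CPM of TTC33 knock-down replicate 1. Outside the rule for named genes, WDR61 was lower (-0.29 ± 0.09) and the helicase gene SKIV2L higher (0.22 ± 0.07), with adjusted p of 0.0396 and 0.039. The median log2 difference of the 4 was -0.35, against 0.005 over all genes tested. With the correction for G and C content and length it was -0.17, HBS1L was at -0.24 (adjusted p = 0.00301), TTC37 at -0.15 (0.08), WDR61 at -0.19 (0.0301), and SKIV2L turned to -0.03 (0.753). HBS1L held whichever library was left out (adjusted p up to 0.0404), while TTC37 lost its call without control replicate 2 or replicate 2 or 3 of either knock-down (up to 0.12), and WDR61 and SKIV2L held only without replicate 1 of either knock-down (otherwise up to 0.146 and 0.139).

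Among 17 other enzymes of RNA decay, edgeR called 2 lower in the TTC33 knock-down (11.9% of all genes passed), 1 lower in the CCDC97 knock-down (4.56%), and 2 higher and 5 lower in the direct contrast (21.5%). With DESeq2 there were 1 higher and 3 lower, 1 and 1, and 2 and 6 in that order, beside 16.5%, 9.74% and 28.2% of all genes. With the correction for G and C content and length there were 3 higher and 4 lower, 2 and 2, and 4 and 5, beside 27.9%, 19.7% and 28.7%. DCP2, the decapping enzyme, had 268, 273 and 264 CPM in controls and 225, 148 and 130 CPM in the TTC33 knock-down (log2 fold change -0.68 ± 0.18, SE; edgeR adjusted p = 0.0342). CNOT7, a deadenylase of the CCR4-NOT complex, had 174, 180 and 168 CPM in controls and 149, 119 and 119 CPM in that knock-down (-0.43 ± 0.11; adjusted p = 0.0292). In both genes replicate 1 was nearest to the controls, without reaching them. DCP1A, a cofactor of decapping, fell in the CCDC97 knock-down, from 53.0, 49.9 and 53.0 to 40.3, 39.6 and 43.7 CPM (-0.34 ± 0.08; adjusted p = 0.0379). In the direct contrast DCP1A and the decapping scaffold gene EDC4 were higher (0.42 and 0.49; adjusted p = 0.0057 and 0.0173). The genes lower there were DCP2 (-0.78), CNOT7 (-0.61), the deadenylase genes CNOT6L (-0.56) and PARN (-0.28), and PNPT1 (-0.30), which encodes the mitochondrial polynucleotide phosphorylase, with adjusted p of 0.0128, 0.00384, 0.0228, 0.0197 and 0.0306. With the correction they were at -0.56, -0.39, -0.30, -0.18 and -0.07, and EDC4 was at 0.20; PNPT1 alone among these lost its call (adjusted p = 0.431). Whichever library was left out, CNOT7 and DCP1A held in the direct contrast. EDC4, CNOT6L and PARN lost their calls there without replicate 2 or 3 of either knock-down (adjusted p up to 0.0823, 0.0928 and 0.0765), and DCP2 without CCDC97 knock-down replicate 2 or 3 or TTC33 knock-down replicate 2 (up to 0.0634). PNPT1 held only without replicate 1 of either knock-down (otherwise up to 0.126). Against control, DCP2 and CNOT7 lost their calls without any control replicate or TTC33 knock-down replicate 2 or 3 (adjusted p up to 0.134 and 0.121), and DCP1A lost its call in 7 of 9 cases (up to 0.175), holding without replicate 1 of either knock-down.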

How the data were processed

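Total RNA was extracted with phenol and sequenced. Whole-number counts per gene were deposited by the authors without normalization. Per the submitters' processing notes, Trimmomatic 0.39, HISAT2 and HTSeq 2.0.1 were used on GRCh38; not given in the sources used here were the version of HISAT2, the annotation release and the strand setting. Each library has an R12 and a U count table, and no source explains these marks. R12 counts were used, since U held 6.55% to 11.9% of the sum of both. Rows naming no gene (33.4% to 57.9% of R12 counts) were left out.

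The main test was that of edgeR 4.0.16, run in R 4.3.3 (filterByExpr, TMM factors, quasi-likelihood fit of all 9 libraries with a term per group, 6 residual degrees of freedom, 3 contrasts). Tests were two-sided, with Benjamini-Hochberg adjustment over all 18299 genes and a threshold of 0.05. The common biological coefficient of variation was 0.109. SE and 95% intervals of log2 fold changes come from the F statistic. CPM uses TMM-scaled library sizes, and log2 values per library use a prior count of 2. Chi-square per degree of freedom between replicates was 3.31 to 5.70 in controls and 6.82 to 34.6 in knock-downs, above the 1 that counting noise alone gives, so no 2 were counted as 1 sample. Lengths and G and C content came from GENCODE release 29.

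Named genes were the 10 subunits, the 12 genes with the smallest adjusted p in any contrast among the related lists, and the 5 genes most like the subunit with the smallest p over the groups. The subunits and the lists were chosen with earlier results of these data known. Alternatives were other scalings and filters, a replicate block, a fit restricted to both groups of a contrast, DESeq2 1.42.0 (Wald test), smooth corrections for G and C content and length (mgcv 1.9.3), the sum of both tables, another length, and leaving out each library. The shares of all genes called by DESeq2 are over the genes to which it gave an adjusted p. These were 18297 in the TTC33 knock-down, 15104 in the CCDC97 knock-down and 16523 in the direct contrast. With the correction for G and C content and length the shares are over 18042 genes. The scripts were tested on simulated data.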

Additional observations from a re-analysis of the deposited data

Results flagged for a closer look

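The effects of the knock-downs on 4 subunits differed by the direct contrast of the TTC33 against the CCDC97 knock-down (edgeR quasi-likelihood test, adjusted p under 0.05), where 21.5% of all genes tested passed. The log2 differences were -0.47 for EXOSC7, 0.37 for EXOSC6, -0.43 for EXOSC8 and 0.31 for EXOSC5. For EXOSC6 the TTC33 knock-down overlapped the controls, and for EXOSC8 and EXOSC5 the CCDC97 knock-down did. For EXOSC7 no 2 groups overlapped, but the TTC33 knock-down did not pass against control (edgeR adjusted p = 0.308). Its lowest library was at 17.61 CPM, beside 17.55 CPM in the highest control. In that comparison the groups did not overlap for 36.8% of all genes tested. The difference of EXOSC5 was 0.03 after the correction for G and C content and length, and its call was lost in 7 of 9 fits without 1 library. Groups of 3 libraries were not tested for single outlying values.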

How the results depend on the processing

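EXOSC7 in the CCDC97 knock-down, and EXOSC6 and EXOSC7 in the direct contrast, kept their direction and call under all 20 alternatives. Counts of genes called in the TTC33 knock-down (2186) were 3821 without a filter on low counts, 756 with the replicate number as a block, 5033 with the correction for G and C content and length, 4684 with both, and 552 to 6512 without a library, lowest without control replicate 1 and highest without TTC33 knock-down replicate 1. Subunits called there (0) were 1, 0, 3, 3 and 0 to 3 in that order, and 1 with DESeq2. In the CCDC97 knock-down (835 genes, 379 higher and 456 lower; 2 subunits) the counts were 1369 genes without a filter, 1471 and 4 subunits with DESeq2, 1339 genes in a fit of the 2 groups, 240 and 1 with the block, 3559 (2064 higher, 1495 lower) and 4 with the correction, 3273 and 4 with both, and 203 to 1981 and 1 to 5 without a library, lowest without control replicate 1 and highest without TTC33 knock-down replicate 1 (genes) or CCDC97 knock-down replicate 1 (subunits). In the direct contrast (3943; 4) they were 1479 and 2 in a fit of the 2 groups, 1857 and 2 with the block, and 1528 to 7767 and 2 to 8 without a library, lowest without CCDC97 knock-down replicate 2 and highest without TTC33 knock-down replicate 1 (genes) or CCDC97 knock-down replicate 1 (subunits). Leaving out replicate 1 of both knock-downs, chosen after seeing the data, gave 9129, 6675 and 10360 genes and 5, 7 and 9 subunits. The cause was not tested.

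The replicate block ended the calls of EXOSC6 in the CCDC97 knock-down (adjusted p = 0.119) and of EXOSC8 and EXOSC5 in the direct contrast (0.051 and 0.103), and no other subunit call. Among the other genes named it ended 18 of 30 calls. That count takes in the genes chosen for following EXOSC7, whose calls describe that choice, so it is no measure of how robust the results are. The numbers are not known to pair the libraries: deviations from the group mean correlated over genes by -0.50, -0.11 and -0.14 between knock-down libraries with numbers 1, 2 and 3, and by -0.03 to 0.09 between these and controls.

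Among subunits, signs turned in values that had not passed. SKIV2L in the direct contrast, which had passed, became -0.029 with the correction and -0.030 with both. EXOSC9 in the TTC33 knock-down became 0.11 with the correction, with or without the block. In the CCDC97 knock-down EXOSC2 (0.0058) became -0.0095 with upper-quartile factors, -0.023 without a filter, -0.017 with a mean of 5 CPM and -0.0037 in a fit of the 2 groups, EXOSC4 (-0.033) became 0.0675 with the correction and 0.0688 with both, and EXOSC5 (-0.0065) became 0.0923 with the correction, 0.0896 with both and 0.0072 with the sum of both tables. Without a library these ran from -0.0247 to 0.0368 (EXOSC2), -0.221 to 0.077 (EXOSC4) and -0.0544 to 0.058 (EXOSC5), and EXOSC10 in the direct contrast from -0.0848 to 0.0049. With the longest coding transcript as length, ranks by level in controls became 1 for EXOSC10 (from 2), 2 for EXOSC2 (4), 3 for EXOSC8 (5), 4 for EXOSC9 (6), 5 for EXOSC1 (8), 6 for EXOSC5 (3), 7 for EXOSC6 (1), 8 for EXOSC7 (10), 9 for EXOSC3 (7) and 10 for EXOSC4 (9).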
